A study of Mus musculus with 12 samples.

Results

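The genes described here encode the proteasome, its activators and its maturation factor in mouse splenic B cells cultured with lipopolysaccharide (LPS). They were chosen by symbol: the series Psma, Psmb, Psmc, Psmd and Psme followed by a number, together with Pomp. Of 24325 symbols listed, 44 fitted this rule, and 42 of those reached at least 1 FPKM (fragments per kilobase of transcript, scaled to the mapped fragments of the library) in at least 2 libraries. The remaining pair, Psma8 of the germ-line proteasome and Psmb11 of the thymus, stayed below 1 FPKM in every library. Of the 42, 5 belong to the immunoproteasome (Psmb8, Psmb9, Psmb10, Psme1 and Psme2), and the other 37 are called constitutive below.

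Splenic B cells enriched on B220 beads from C57BL/6 mice were grown with 25 µg/ml LPS and sorted on day 4 into 3 populations. ActB are activated B cells without CD138 and without Blimp1-GFP, PrePB are pre-plasmablasts with GFP but no CD138, and PB are plasmablasts with both. Each population came from Mzb1+/+ Prdm1+/gfp (wt) and from Mzb1-/- Prdm1+/gfp (ko) cells, with 2 libraries in each of the 6 groups, 12 in all. Every group, controls included, carries 1 Prdm1 allele with gfp, and that allele supplies the Blimp1-GFP signal used for the sort. The labels do not state which mouse each library came from. The first wt library of each population listed Xist, the transcript of the inactive X, at 33.3 to 81.4 FPKM and the Y-linked Ddx3y at no more than 0.0479, while the other 9 libraries listed Ddx3y at 15.7 FPKM or more and Xist at no more than 0.389. The 2 wt libraries of each population thus came from mice of opposite sex, and all ko libraries showed the male pattern. In ko nothing says whether the 2 libraries of a group are separate mice, so there the spread between libraries may be technical. In bulk RNA, fewer cells of a type and less RNA per cell cannot be told apart.

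The proteasome is the protease that degrades ubiquitin-tagged proteins. Its 20S core is a barrel with outer rings of alpha subunits and inner rings of beta subunits, of which Psmb5, Psmb6 and Psmb7 carry the active sites. The 19S cap, built from the Psmc ATPases and the Psmd subunits, binds tagged proteins, unfolds them and feeds them into the barrel. In the immunoproteasome, which is abundant in lymphoid cells and favours peptides that fit MHC class I, Psmb8 takes the place of Psmb5, Psmb9 that of Psmb6 and Psmb10 that of Psmb7, and the PA28 ring of Psme1 and Psme2 can open the barrel in place of the cap. Antibody-secreting cells are known for a heavy load of misfolded secretory protein and for their sensitivity to proteasome inhibitors.

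Promoters are shown for the genes on which the results turn: Psmb8 and Psmb9, which were lower in PB, Psmb5 and Psmb6, which they replace, and Psme4, which rose. Each line gives the 250 bases before the start of transcription, 5′ to 3′ on the strand of the gene, from RefSeq on GRCm38.p6. Capitals mark matches to the motifs that were searched on both strands.
Psmb8 promoter, chr17:34197945-34198194, plus strand: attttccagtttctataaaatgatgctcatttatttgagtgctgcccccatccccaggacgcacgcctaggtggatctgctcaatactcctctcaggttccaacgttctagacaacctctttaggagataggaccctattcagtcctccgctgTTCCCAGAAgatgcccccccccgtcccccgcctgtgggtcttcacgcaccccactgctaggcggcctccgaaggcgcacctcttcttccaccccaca
Psmb9 promoter, chr17:34187331-34187580, minus strand: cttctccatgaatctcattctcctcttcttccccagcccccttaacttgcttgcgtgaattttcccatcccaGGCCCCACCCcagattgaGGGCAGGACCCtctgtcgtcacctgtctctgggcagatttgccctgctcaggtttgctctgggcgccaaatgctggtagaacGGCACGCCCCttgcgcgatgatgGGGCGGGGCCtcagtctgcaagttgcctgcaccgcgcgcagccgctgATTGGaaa
Psmb5 promoter, chr14:54617996-54618245, minus strand: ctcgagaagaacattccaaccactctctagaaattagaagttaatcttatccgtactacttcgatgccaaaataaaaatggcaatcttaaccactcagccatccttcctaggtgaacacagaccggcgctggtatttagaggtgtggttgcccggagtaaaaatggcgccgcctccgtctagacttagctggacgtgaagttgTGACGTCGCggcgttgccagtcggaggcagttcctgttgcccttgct
Psmb6 promoter, chr11:70525107-70525356, plus strand: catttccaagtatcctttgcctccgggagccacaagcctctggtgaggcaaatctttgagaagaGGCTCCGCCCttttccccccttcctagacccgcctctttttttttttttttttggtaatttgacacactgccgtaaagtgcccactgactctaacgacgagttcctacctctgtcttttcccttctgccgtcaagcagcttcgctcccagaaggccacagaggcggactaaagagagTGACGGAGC
Psme4 promoter, chr11:30771525-30771774, plus strand: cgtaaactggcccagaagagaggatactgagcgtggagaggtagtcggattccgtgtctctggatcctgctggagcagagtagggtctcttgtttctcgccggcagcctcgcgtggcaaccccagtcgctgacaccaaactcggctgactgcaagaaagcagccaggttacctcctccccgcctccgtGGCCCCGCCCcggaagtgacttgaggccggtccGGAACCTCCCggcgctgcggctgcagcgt
The capitals in Psmb5, and those at the end of Psmb6, match the core of the antioxidant response element (TGACNNNGC), the element read by Nrf1 and Nrf2. The capitals in Psmb8 match the gamma-activated site TTCNNNGAA. Those in Psme4, the first stretch in Psmb6 and all but the last stretch in Psmb9 match the loose NF-kappaB pattern of GGG and CC separated by 5 bases, and the last stretch in Psmb9 is a CCAAT box on the opposite strand. RefSeq promoters were found for 36 of the 42 genes, with 39 starts. The antioxidant core stood in 12.8% of these 39 promoters (Psmb5, Psmb6, Psmc6, Psmd12 and Psmd9) and in 10.2% of all 32817 promoters of the same length. The gamma-activated site was in 2.56% against 7.01%, the NF-kappaB pattern in 53.8% against 45.8%, CCAAT in 33.3% against 33.8%, and the interferon-stimulated response element (2 copies of GAAA separated by 2 bases) in 7.69% against 2.97%, in Psmb3, Psmd4 and Psmd9. The unfolded protein response element TGACGTGG was in none of the 39 and in 0.564% of all. These are matches of letters and not measured sites.

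The libraries fitted their labels in the sorted populations. The summed level of 6 plasmablast markers (Sdc1, Prdm1, Xbp1, Irf4, Jchain and Tnfrsf17) ran from 191 to 293 FPKM in ActB, 8610 to 11715 in PrePB and 18979 to 25764 in PB, and that of 6 B cell markers fell from 3239 to 4214 in ActB to 1959 to 2497 in PB. Mzb1 itself was listed at 845 to 17359 FPKM in wt and at 273 to 1008 in ko libraries, with ko below wt in each population. Summed T cell, natural killer cell, macrophage and dendritic cell markers stayed at or below 30.1 FPKM in every library. Of the T cell and natural killer cell lists, Cd3g and Eomes rose with differentiation, to at most 8.17 and 6.01 FPKM, while Cd3e stayed at or below 0.138 and Ncr1 was listed at 0. Of the macrophage list, Adgre1 was higher in ActB, at up to 28.2 FPKM, while Csf1r stayed at or below 0.121 in every library. Hba-a1 and Hbb-b1 of red cells were listed at 0 throughout. By the steps of their low values the libraries fell into a set of 8 and a set of 4, the latter made of both ko PB, the second ko ActB and the second ko PrePB library. Among genes below 0.5 FPKM, the most frequent ratio between 2 libraries was shared by 2.13 to 4.89% of genes across the sets and by 7.70 to 20.5% within them. In PB this set and the genotype cannot be told apart.

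All parts of the complex were expressed, over a wide range of transcript levels. Psmb4, a structural beta subunit, had the highest median over the 12 libraries, 470 FPKM, followed by Psmd8 of the 19S lid (297), Psma7 of the alpha ring (285) and Pomp, which helps the beta rings to assemble (272). FPKM is a level per length of transcript, so genes can be ranked by it. The alpha ring holds each of its subunits in equal number, yet its transcripts ran from a median of 6.93 FPKM for Psma3 and 12.8 for Psma5 through 61.9 for Psma4 to 285 for Psma7. Psme2 of PA28 stood lowest, at 6.84 FPKM, beside 148 for its ring partner Psme1.

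Some of these low levels belong to genes with near-identical copies, between which reads can be split. A search of the members' transcripts against GENCODE M21 found a copy of at least 95% identity over at least 50% of the transcript for 8 of the 42: Psma4, Psma5, Psmb3, Psmb5, Psmc1, Psmd2, Psmd11 and Psme2. Psme2b, the copy of Psme2, does not match the symbol rule and was listed at 173 to 267 FPKM. Psma3 had no such copy, and its low level was not tested further. In the plot of levels by library, most genes vary little across the 12 libraries beside the differences between genes. Within a gene, the highest library was 1.20 times the lowest for Psmd13 and Psmc4 and 2.80 times for Psme4, the widest ratio, next to 2.60 for Psmb5 and 2.53 for Psma6.

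**Figure D1:**
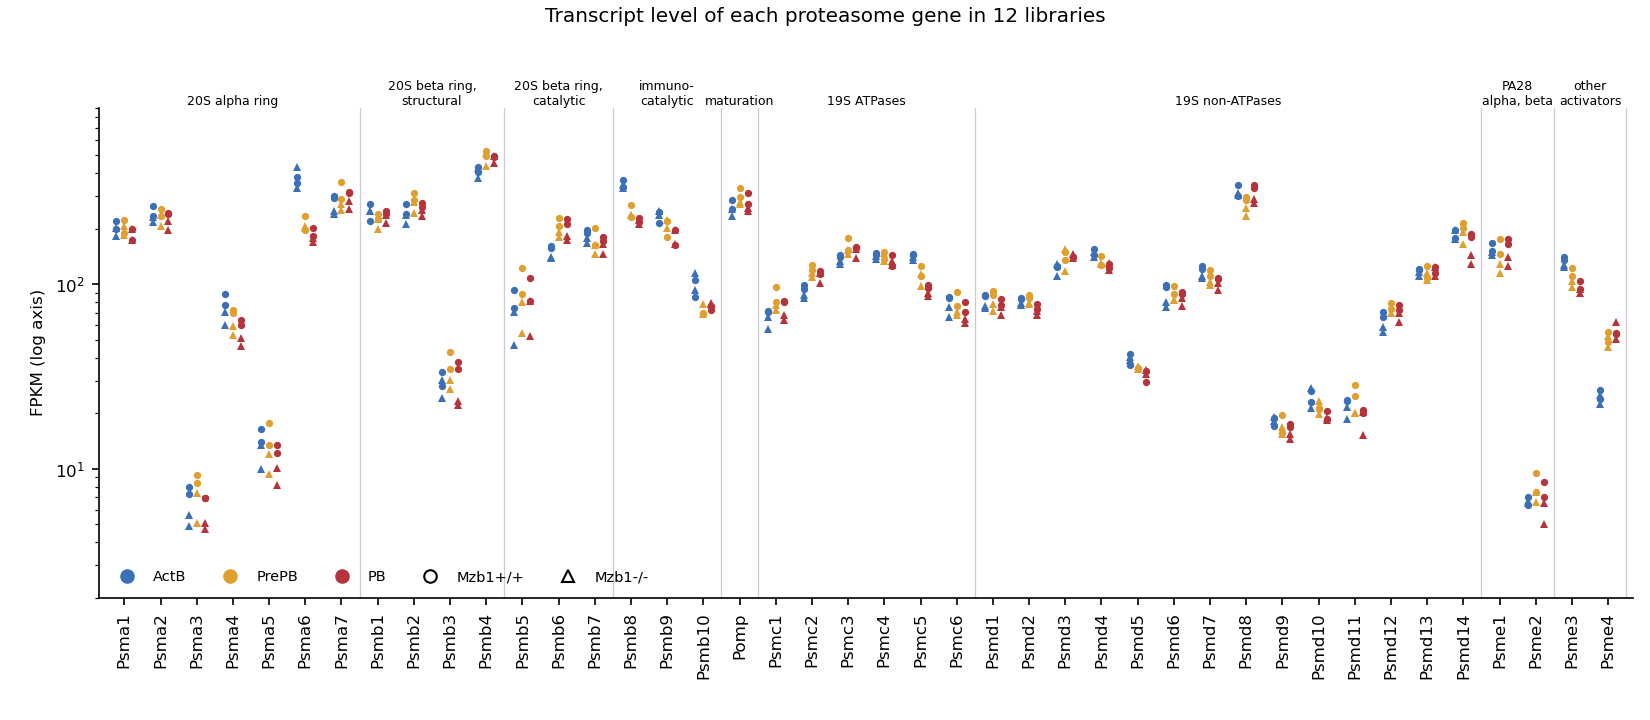
FPKM of the 42 proteasome genes (log axis) in each of the 12 libraries, grouped by role; colours are populations, circles Mzb1+/+ and triangles Mzb1-/- libraries. Median levels run from 6.84 FPKM for Psme2 to 470 for Psmb4, and Psme4 and Psma6 show the clearest separation of ActB from the other populations.

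Few proteasome genes were higher in PB than in ActB, and the largest changes went in opposite directions. From ActB to PB, Psme4, the nuclear activator PA200, rose 2.10-fold in wt and 2.32-fold in ko (ratio of FPKM + 1), while the alpha subunit Psma6, the immunoproteasome subunit Psmb8, the 19S ATPase Psmc5 and the nuclear PA28 activator Psme3 fell. In wt, 3 of 42 genes were higher and 11 lower in PB than in ActB (limma on log2(FPKM + 1), Benjamini-Hochberg adjusted p below 0.05 over 11069 genes). Over all genes tested, 31.0% were higher and 31.0% lower in that comparison, so the count of lower proteasome genes stood near that background and the count of higher ones below it. In ko, 4 were higher and 12 lower, beside 31.2% and 30.9% of all genes. The median change of the 42 was -0.09 in wt and -0.15 in ko on the log2 scale, against -0.01 in each genotype for all genes.

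More genes were called between ActB and PrePB than between PrePB and PB. The first step had 5 genes higher and 5 lower in wt (all genes 27.1% and 26.3%), and 5 higher and 6 lower in ko (27.1% and 27.0%). The step from PrePB to PB had none called in wt (5.02% of all genes higher and 3.70% lower), with 5 genes at an unadjusted limma p below 0.05. Those percentages are for adjusted p, and the share of all genes at the unadjusted threshold was not computed. In ko, Psmd14 alone was called at that step, and it was lower (6.57% of all genes higher and 4.24% lower). Its log2 change was -0.39 (SE 0.10, limma adjusted p = 0.0384), and the call was lost when the first PrePB, the first PB or the second PB library of ko was left out.

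**Figure D2:**
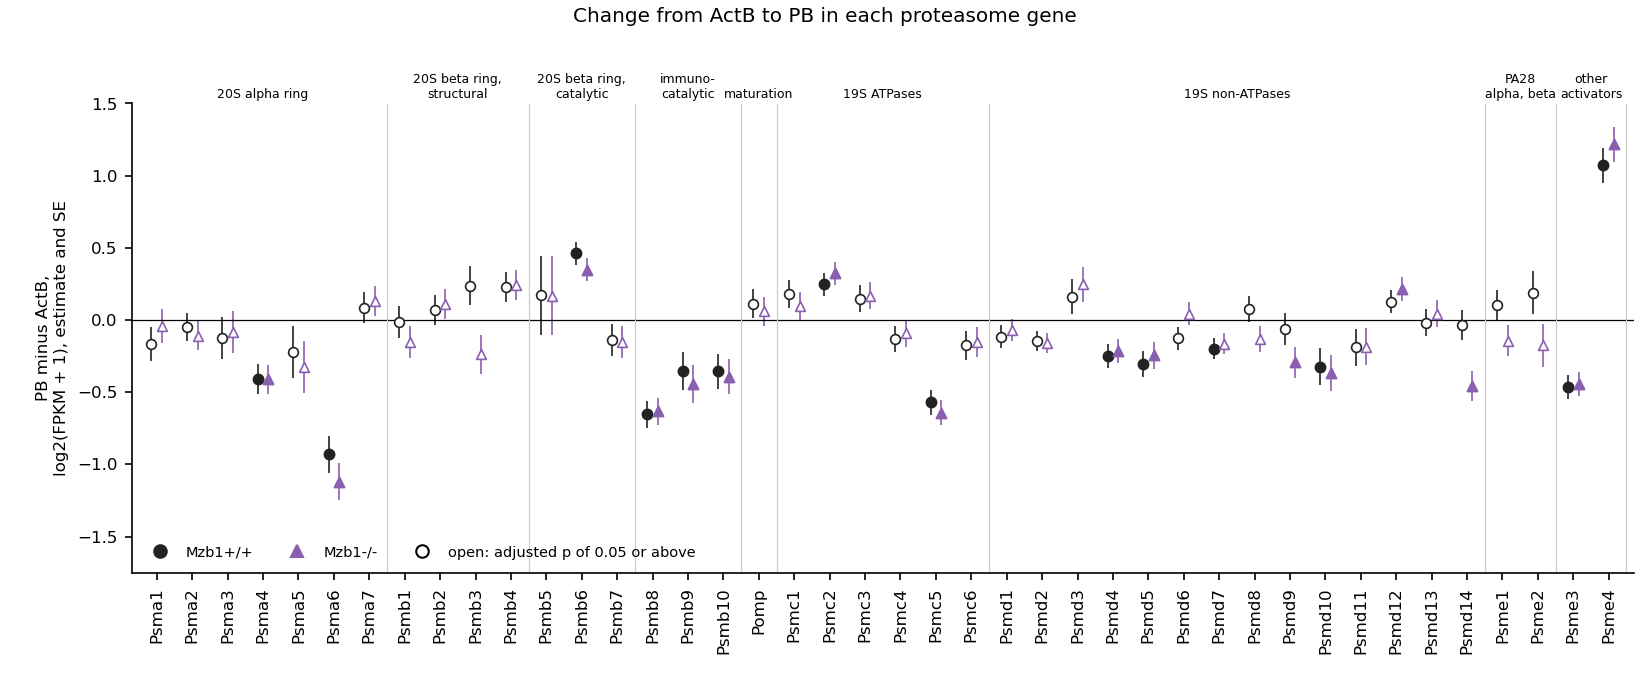
Change from ActB to PB of each gene on the log2(FPKM + 1) scale with its standard error, in Mzb1+/+ (circles) and Mzb1-/- (triangles); filled symbols passed the adjusted limma threshold. Psme4 lies at 1.07 and 1.22 and Psma6 at -0.93 and -1.12, while the other genes lie between -0.65 and 0.46.

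Counts of called genes depended on how the libraries were put on one scale. The deposited totals were higher in PB than in ActB, and setting them equal moved the median of all genes by -0.36 in wt PB against ActB. With equal totals 1 gene was higher and 34 were lower in that comparison, and with quantile normalization 1 and 26. Under both, Psme4 was the 1 gene called higher. In ko PB against ActB the split was 1 higher and 30 lower with equal totals and 2 and 25 with quantile normalization. Between ActB and PrePB it was 1 and 23 with equal totals and 3 and 14 with quantile normalization in wt, and 3 and 14, and 4 and 13, in ko. Shares of all genes called were not computed under either scaling, so these counts have no background beside them. In wt PB against ActB, the median of all genes was -0.38 with equal totals and -0.06 with quantile normalization. That of the 42 was -0.47 and -0.29. A gene's level relative to the median proteasome gene of its own library hardly changes with a single scaling factor per library. Quantile normalization can still change it. By that relative level, on the deposited values, 27 of 42 genes moved by less than 0.25 (log2) from ActB to PB, and 41 of 42 from PrePB to PB. The 42 genes together made up 1.21 to 1.39% of all FPKM in ActB, 0.974 to 1.18% in PrePB and 0.940 to 1.03% in PB, ranges that do not overlap between ActB and PB. Their summed FPKM did overlap, at 5616 to 6257 in ActB and 4960 to 5860 in PB, so the share also reflects the higher totals of PB. In the second ko PrePB library, the one at 0.974%, genes of small RNAs, picked by symbol, held 14.3% of FPKM. With such genes left out of the totals, the shares were 1.29 to 1.42% in ActB, 1.12 to 1.24% in PrePB and 0.971 to 1.05% in PB. These ranges do not overlap.

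Among the activators, Psme4 rose and Psme3 fell. Psme4 encodes PA200, a large activator of the nucleus linked to degradation of acetylated histones and to DNA repair. It was listed at 26.8 and 23.7 FPKM in wt ActB and at 22.3 and 24.9 in ko ActB. In PrePB it stood at 48.4 and 54.7 (wt) and 45.8 and 52.5 (ko), and in PB at 54.6 and 53.5 (wt) and 50.5 and 62.5 (ko). Every PrePB and PB library lay above every ActB library. The log2 change from ActB to PB was 1.07 in wt (SE 0.12, limma adjusted p = 1.87e-05) and 1.22 in ko (SE 0.12, adjusted p = 7.04e-06), and that from ActB to PrePB was 1.00 and 1.02. The call held in every setting tried, with the change in wt PB between 0.67 and 1.16.

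Psme3 encodes PA28gamma, a nuclear ring that stimulates degradation without ubiquitin. Its level was 140 and 134 FPKM in wt ActB, 122 and 110 in wt PrePB, and 104 and 93.8 in wt PB. In ko it was 127 and 123, then 96.9 and 103, then 89.1 and 94.3. All 4 PB libraries were below all 4 ActB libraries. The log2 change from ActB to PB was -0.47 in wt (SE 0.08, limma adjusted p = 0.000634) and -0.44 in ko (adjusted p = 0.000916). Psme3 and Psme4 thus moved in opposite directions over the same step.

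Psme1 and Psme2, the alpha and beta parts of PA28, were not called in any population step. Psme1 ran from 144 to 168 FPKM in ActB and from 126 to 176 in PB, and its change was 0.10 in wt and -0.14 in ko (limma adjusted p = 0.431 and 0.270). With the replicate number as a block Psme1 was called lower in ko PrePB than in ko ActB, at -0.27 (limma adjusted p = 0.0496, and 0.0568 without the block). Psme2 alone ran from 5.01 to 9.43 FPKM over all libraries. Added to its copy Psme2b, an addition chosen after the data were seen, it reached 184 and 199 FPKM in wt ActB, 274 and 242 in wt PrePB, and 250 and 236 in wt PB. The sum was higher in wt PB than in wt ActB by 0.34 (limma adjusted p = 0.00487), and in ko by 0.20 (adjusted p = 0.0620). With equal totals these became -0.07 and -0.10, and neither passed the threshold (limma adjusted p = 0.461 and 0.294). From ActB to PrePB the sum rose by 0.43 in wt and 0.32 in ko (limma adjusted p = 0.00162 and 0.00825). With equal totals this rise was 0.18 and 0.17, without a call (limma adjusted p = 0.0783 and 0.0952).

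**Figure D3:**
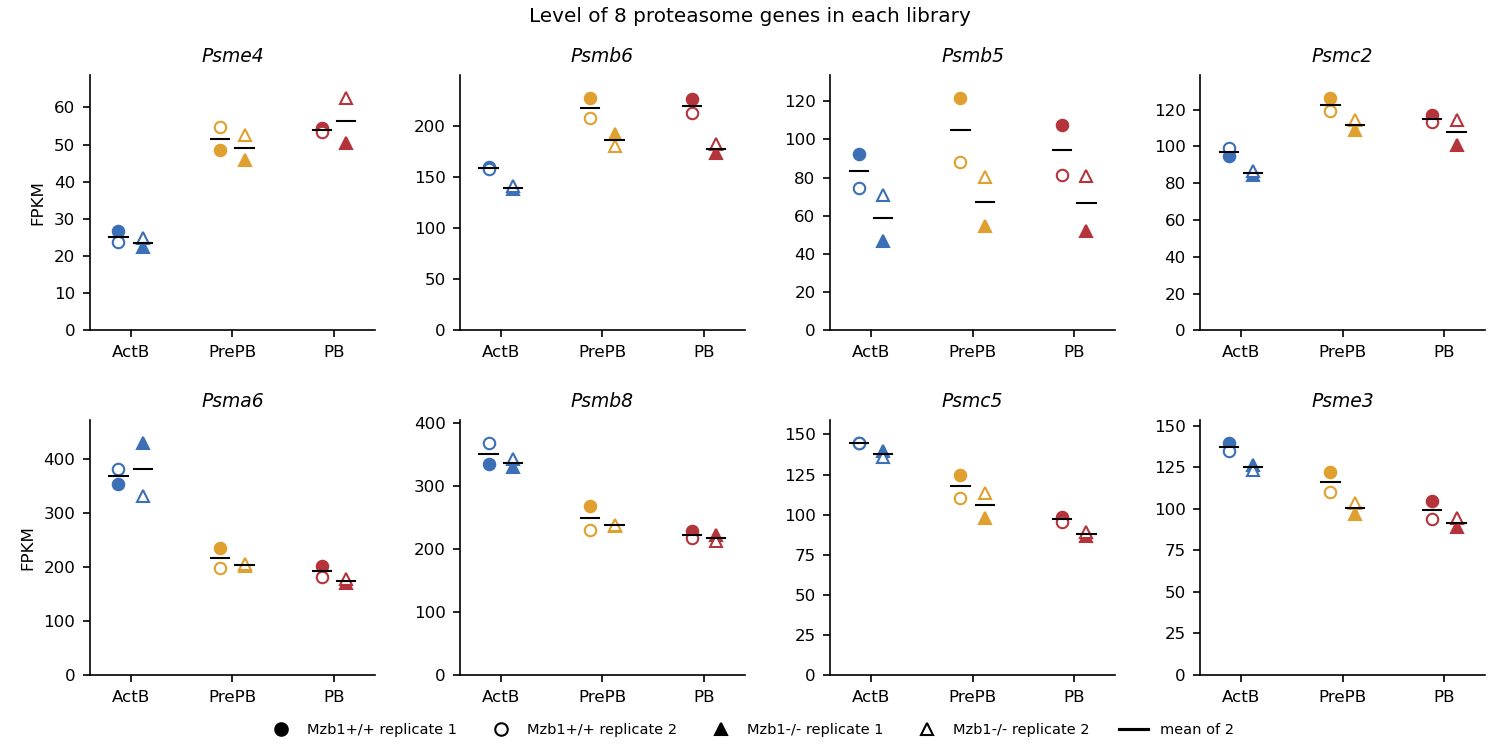
FPKM of 8 proteasome genes in each library (axes from 0), with circles for Mzb1+/+ and triangles for Mzb1-/-, filled for replicate 1 and open for replicate 2; bars are means of 2. Psme4 separates ActB (22.3 to 26.8) from PrePB and PB (45.8 to 62.5), Psma6, Psmb8, Psmc5 and Psme3 are lower in PB, and Psmb5 differs more between libraries of a group than between populations.

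The 3 catalytic subunits of the immunoproteasome were lower in PB than in ActB, Psmb8 by the widest margin. Psmb8 (LMP7, the beta5i subunit) stood at 335 and 369 FPKM in wt ActB and 330 and 344 in ko ActB. It was 268 and 230 in wt PrePB, 237 and 238 in ko PrePB, 228 and 218 in wt PB, and 222 and 212 in ko PB. No PrePB or PB library reached the lowest ActB library. The log2 change from ActB to PB was -0.65 in wt (SE 0.09, limma adjusted p = 0.000105) and -0.63 in ko (SE 0.09, adjusted p = 0.000138), a call kept in every setting.

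Psmb9 (LMP2, beta1i) changed less. It was listed at 215 and 245 FPKM in wt ActB, 219 and 180 in wt PrePB, and 196 and 164 in wt PB, and at 250 and 238, 224 and 201, and 195 and 164 in the same populations of ko. All PB libraries lay below all ActB libraries, and PrePB overlapped with both. The change from ActB to PB was -0.35 in wt (limma adjusted p = 0.0361) and -0.45 in ko (adjusted p = 0.0125). The wt call was lost without the second ActB or the second PB library, and the ko call without the first ActB or the second PB library. Without a filter on low values neither call of Psmb9 passed.

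Psmb10 (MECL-1, beta2i) stood at 85.0 and 105 FPKM in wt ActB and 92.6 and 115 in ko ActB. It was 68.9 and 69.5 in wt PrePB, 69.2 and 77.9 in ko PrePB, 72.0 and 75.8 in wt PB, and 78.4 and 78.5 in ko PB. Here too every ActB library was above every PrePB and PB library. Its change from ActB to PB was -0.35 in wt (limma adjusted p = 0.0259) and -0.39 in ko (adjusted p = 0.0160). Either PB library, or the second ActB library, removed the call when left out, in wt and in ko alike, as did testing without a filter. Of the 5 immunoproteasome genes, 3 were thus lower in PB in both genotypes and none was higher, beside 31.0% of all genes lower in wt and 30.9% in ko, with a median change of -0.35 in wt and -0.39 in ko. The 37 constitutive genes had a median of -0.06 and -0.11. These counts take Psme2 without its copy Psme2b. The sum of Psme2 and Psme2b was called higher in wt PB, by 0.34, and was not called in ko PB. Relative to the median proteasome gene of each library, Psmb8 differed by -0.48 between PB and ActB with no overlap, while Psmb9 at -0.24 and Psmb10 at -0.21 had PB and ActB libraries that overlapped.

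None of the 3 constitutive partners was called lower in PB on the deposited scale. Psmb6 (beta1, which cuts after acidic residues) was listed at 160 and 158 FPKM in wt ActB, 227 and 207 in wt PrePB, and 226 and 213 in wt PB. In ko it was 138 and 141, then 192 and 180, then 173 and 183. In both genotypes each PrePB and PB library exceeded each ActB library. The change from ActB to PB was 0.46 in wt (SE 0.08, limma adjusted p = 0.000430) and 0.35 in ko (adjusted p = 0.00282). With quantile normalization or equal totals Psmb6 kept its direction and lost this call, with 0.05 as the lowest change in each genotype.

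Psmb7 (beta2, which cuts after basic residues) ran from 168 to 196 FPKM in ActB and from 145 to 180 in PB, without a call, though with quantile normalization or equal totals it was called lower in both genotypes. Psmb5 (beta5, the chymotrypsin-like site and a main target of bortezomib) differed more between libraries than between populations. In wt, replicate 1 gave 92.3, 122 and 107 FPKM in ActB, PrePB and PB, and replicate 2 gave 74.4, 88.0 and 81.3. In ko, replicate 1 gave 46.7, 54.4 and 52.1, and replicate 2 gave 70.9, 80.4 and 80.7. The 4 values kept one order in all 3 populations. Its change from ActB to PB was 0.17 in each genotype (SE 0.28, limma adjusted p = 0.609 and 0.615). With the replicate number as a block, Psmb5 was called higher in PB (limma adjusted p = 0.0462 in wt and 0.0476 in ko) and in PrePB, by 0.32 in wt and 0.20 in ko (adjusted p = 0.00305 and 0.0300). PrePB and PB lay above ActB within each of the 4 combinations of genotype and replicate number. With equal totals the change from ActB to PB was below 0 in both genotypes, without a call. A processed pseudogene, Gm3375, is 98.9% identical to Psmb5 over 88.4% of its transcript and was not listed in the files.

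A ratio of exchange partners within a library is free of a single scaling factor for that library, though not of quantile normalization. Psmb9 over Psmb6 was 1.34 and 1.55 in wt ActB and 1.81 and 1.69 in ko ActB. It was 0.964 and 0.867 in wt PrePB, 1.16 and 1.12 in ko PrePB, 0.865 and 0.769 in wt PB, and 1.13 and 0.898 in ko PB. The ActB ratios lay above all others. On the log2 scale the mean was 0.66 ± 0.19 in ActB and -0.14 ± 0.23 in PB (SD, n = 4 libraries), a difference of -0.81 (exact permutation test, two-sided, p = 0.0286, the smallest this design can give). The difference was -0.82 in wt and -0.79 in ko. Between PB and PrePB it was -0.17 (exact permutation p = 0.314). Each SD spans 2 wt and 2 ko libraries, and in each population both ko ratios lay above both wt ratios. The test treats all libraries as independent, though those of 1 genotype and replicate number may share a mouse across populations.

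Psmb8 over Psmb5 ran from 3.63 to 7.07 in ActB and from 2.12 to 4.26 in PB. The log2 difference was -0.81 between PB and ActB and -0.76 between PrePB and ActB (exact permutation p = 0.0571 for each). The ranges overlapped, and ko replicate 1, where Psmb5 was lowest, gave the highest ratio of each population. Within each of the 4 combinations of genotype and replicate number, the ActB ratio was above the PB ratio. Psmb10 over Psmb7 ran from 0.447 to 0.685 in ActB and from 0.401 to 0.539 in PB, a log2 difference of -0.23 (exact permutation p = 0.229). After adjustment over the 9 ratio tests the smallest p was 0.129, so none passed, and with 4 libraries a population a pass would need most of the 9 to reach the smallest p. Taking the 6 exchangeable catalytic transcripts together, the immunoproteasome genes made up 58.9 to 65.0% of their summed FPKM in ActB, 50.3 to 57.5% in PrePB and 49.1 to 57.2% in PB.

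**Figure D4:**
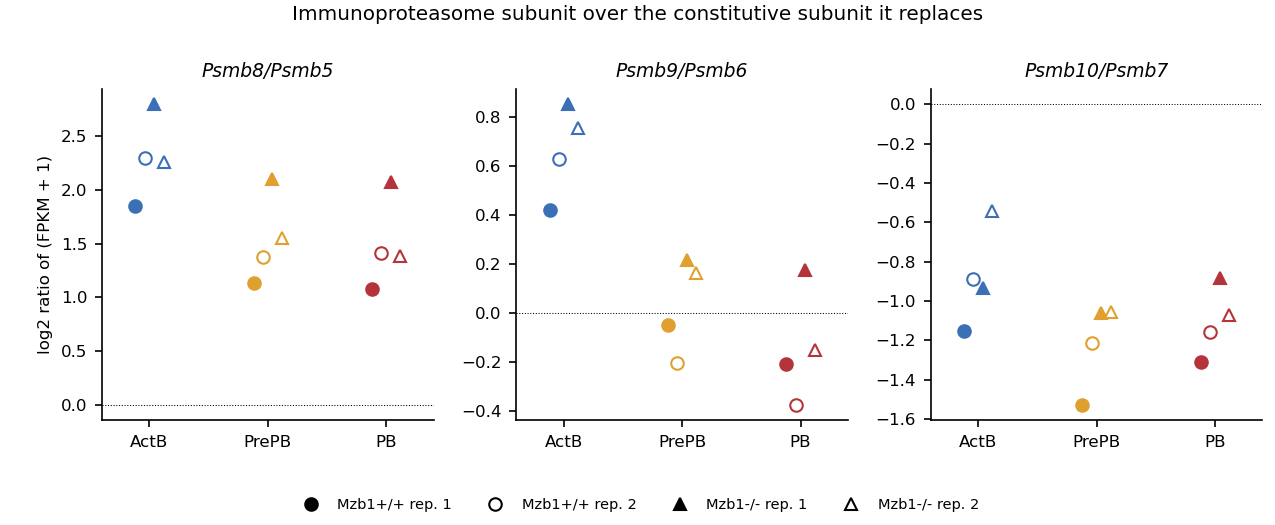
Log2 ratio of FPKM + 1 of each immunoproteasome subunit to the constitutive subunit it replaces, in each library; circles are Mzb1+/+, triangles Mzb1-/-, filled replicate 1, open replicate 2. Psmb9/Psmb6 has a mean of 0.66 in ActB and -0.14 in PB without overlap of the libraries, while ActB and PB overlap for Psmb8/Psmb5 and Psmb10/Psmb7.

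In the alpha ring, Psma6 and Psma4 were lower in PB than in ActB. Psma6 (alpha1) was listed at 354 and 381 FPKM in wt ActB and 429 and 331 in ko ActB. It stood at 235 and 197 in wt PrePB, 202 and 206 in ko PrePB, 202 and 182 in wt PB, and 170 and 177 in ko PB. The lowest ActB library was above the highest library of the other populations. The change from ActB to PB was -0.93 in wt (SE 0.13, limma adjusted p = 8.11e-05) and -1.12 in ko (SE 0.13, adjusted p = 2.02e-05). Its call held in every setting, with changes between -1.37 and -0.86 in wt.

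Psma4 (alpha3) was the other alpha subunit called in PB. It fell from 77.3 and 88.0 FPKM in wt ActB to 63.5 and 60.3 in wt PB, and from 70.3 and 60.2 to 46.2 and 51.3 in ko. The change was -0.41 in each genotype (limma adjusted p = 0.00511 in wt and 0.00496 in ko), and in ko the call was lost without the first ActB library. It is one of the genes with a near-identical copy. The remaining 5 alpha transcripts, Psma1, Psma2, Psma3, Psma5 and Psma7, were not called in any population step. In all, 2 of 7 alpha genes were lower in PB and none higher, in wt and in ko, a share of lower genes near the 31.0% and 30.9% of all genes.

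None of the 4 structural beta transcripts (Psmb1 to Psmb4) was called between ActB and PB without the replicate block. With it, Psmb4 was called higher in PB, by 0.23 in wt and 0.24 in ko (limma adjusted p = 0.0316 and 0.0255), and in ko PrePB, by 0.24 (adjusted p = 0.0277). Psmb4 rose from 403 and 433 FPKM in wt ActB to 529 and 492 in wt PrePB, a change of 0.29 (limma adjusted p = 0.0398). That call, made without the block, was lost when any of the 4 libraries was left out, and with quantile normalization the change became -0.15. Pomp, the chaperone of beta ring assembly and core maturation, was 255 and 285 FPKM in wt ActB and 312 and 271 in wt PB, and was not called in any step. Its change in wt PB was 0.11 (limma adjusted p = 0.348), and turned to -0.30 with equal totals.

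The 6 ATPases of the 19S base did not move together. Psmc5 (Rpt6) was listed at 144 and 145 FPKM in wt ActB, 125 and 110 FPKM in wt PrePB, and 98.5 and 95.6 in wt PB. In ko it was 139 and 136, then 98.1 and 114, then 86.4 and 89.3. The 3 populations did not overlap within a genotype. The change from ActB to PB was -0.57 in wt (SE 0.09, limma adjusted p = 0.000218) and -0.64 in ko (adjusted p = 9.42e-05), kept in every setting. Relative to the median proteasome gene of each library, Psmc5 differed by -0.45 (log2) between PB and ActB, with no overlap between any 2 of the populations.

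Psmc2 (Rpt1) moved the other way, from 94.6 and 99.1 FPKM in wt ActB to 126 and 119 in wt PrePB and 117 and 113 in wt PB. Its change from ActB to PB was 0.25 in wt (limma adjusted p = 0.0198) and 0.33 in ko (adjusted p = 0.00474). The wt call was lost with quantile normalization and without the first ActB, the first PB or the second PB library. With equal totals the wt change became -0.16, and relative to the median proteasome gene it was 0.45 over both genotypes, with no overlap of PB and ActB. Psmc1 (Rpt2) was higher in PrePB than in ActB by 0.31 in wt and by 0.28 in ko (limma adjusted p = 0.0233 and 0.0361). That call was lost with quantile normalization, with equal totals and without 3 of the 4 libraries of each genotype in turn (in wt all but the second PrePB library, in ko all but the first ActB library). Psmc3, Psmc4 and Psmc6 were not called in any population step.

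Of the 14 Psmd genes, 4 were lower and none higher in wt PB than in ActB, and 5 were lower and 1 higher in ko, so the counts of lower genes stood near the 31.0% and 30.9% of all genes. In wt PB, Psmd4 (the ubiquitin receptor Rpn10), Psmd7 (Rpn8 of the lid) and the base chaperones Psmd5 and Psmd10 were lower than in ActB, with log2 changes of -0.25, -0.20, -0.30 and -0.32, with limma adjusted p of 0.0219, 0.0408, 0.0136 and 0.0438. Each of these 4 calls was lost when 1 of the libraries was left out. In ko PB, Psmd4, Psmd5, Psmd10, the base chaperone Psmd9 and Psmd14 were lower. The ko calls of Psmd5 and Psmd9 were lost without any 1 of the 4 libraries, that of Psmd4 without all but the second PB library in turn, and that of Psmd10 without all but the second ActB library in turn. Psmd3 of the lid was called higher in ko PB with the replicate block alone, by 0.25 (limma adjusted p = 0.0305). Psmd12 of the lid was higher in ko PB by 0.22 (limma adjusted p = 0.0388), a call lost without either ActB or the second PB library, and with equal totals the change was -0.08. In ko PrePB it was higher than in ActB by 0.30 (limma adjusted p = 0.0101), a call lost without the first ActB library and with equal totals. Psmd8 was called lower at that step, from 311 and 306 FPKM to 234 and 259. That call was lost without the first ActB or the first PrePB library.

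Psmd14 (Rpn11) is the enzyme that removes ubiquitin chains before a substrate enters the core. It stood at 177 and 197 FPKM in wt ActB, 214 and 200 in wt PrePB, and 186 and 179 in wt PB. In ko it was 197 and 176, then 192 and 164, then 128 and 143. Both ko PB libraries were below all others. The change from ActB to PB was -0.46 in ko (limma adjusted p = 0.00294), kept in every setting, and -0.03 in wt, where quantile normalization and equal totals made it a call of a lower level. The difference between these changes, tested as an interaction, was -0.43 (limma, SE 0.15, unadjusted p = 0.0156), and it did not pass after adjustment.

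The genotypes did not differ in any single proteasome gene after adjustment. In ActB, PrePB and PB, 0 of 42 genes were called between ko and wt (limma), where 0.0542%, 0.117% and 0.407% of all genes were. At an unadjusted p below 0.05 there were 9, 15 and 12, all lower in ko. The share of all genes at that unadjusted threshold was not computed, so these counts have no background beside them. The smallest adjusted p was 0.0728, for Psmb3 in PB. Its level was 37.9 and 34.8 FPKM in wt PB and 22.2 and 23.2 in ko PB, a change of -0.65 (SE 0.14), and in ActB it was 28.0 and 33.5 beside 30.2 and 24.0. Psmb3 has 3 near-identical copies.

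The differences were small and most had the same direction. In ko, 36 of 42 genes had a lower fitted level in ActB, 38 in PrePB and 36 in PB. With equal totals these counts were 36, 30 and 28, and with quantile normalization 35, 32 and 31. As deposited, the median difference of the 42 was -0.12, -0.16 and -0.15, against 0.01, 0.01 and 0.03 for all genes tested. Also as deposited, both ko libraries lay below both wt libraries for 25, 24 and 27 of the 42. Over all genes tested, 17.7%, 21.4% and 21.2% did so. The reverse order was found for 0, 0 and 1 gene (Psmb10 in PB), where 18.3%, 25.7% and 28.0% of all genes had it. Genes of one complex in the same libraries are not independent of each other.

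Markers of the cell types and the sex of the mice differed along with genotype. The summed level of the 6 B cell markers was 1959 and 2111 FPKM in wt PB and 2497 and 2485 in ko PB, 2877 and 2955 in wt PrePB and 3736 and 3546 in ko PrePB, and overlapped in ActB. Their median difference between ko and wt was 0.15 in ActB, 0.37 in PrePB and 0.43 in PB, and 1 of 6 (Pax5, in PB) was called higher in ko. The 6 plasmablast markers had median differences of 0.00, -0.27 and -0.12, with none called. Their summed level was 268 and 293 FPKM in wt ActB and 191 and 223 in ko ActB, 10780 and 11715 in wt PrePB and 8667 and 8610 in ko PrePB, and overlapped in PB. The part of these markers in the differences was not tested. Without the first wt replicate, the female one, the median of the 42 genes was -0.16, -0.10 and -0.13 in ActB, PrePB and PB, with 41, 31 and 34 genes at a lower fitted level in ko.

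The constitutive genes had median differences between ko and wt of -0.14, -0.18 and -0.16 in the 3 populations. The immunoproteasome genes had medians of -0.01, -0.06 and -0.04. Psmb8, Psmb9 and Psmb10 differed by -0.06 to 0.12, while Psme1 differed by -0.39 in PrePB and -0.36 in PB (limma adjusted p = 0.159 and 0.155). No test was made of this contrast between the lists. With equal totals, the median of all genes in PB moved by 0.09 and that of the 42 genes became -0.05. The distance between them was -0.18 as deposited and -0.17 with equal totals. The size depended on single libraries, from -0.10 without the first wt PrePB library to -0.27 without the second in PrePB. In libraries of the same low-value set alone, with 1 ko library in each, the members' median was -0.11 in ActB and -0.19 in PrePB. In PB no such comparison could be made.

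**Figure D5:**
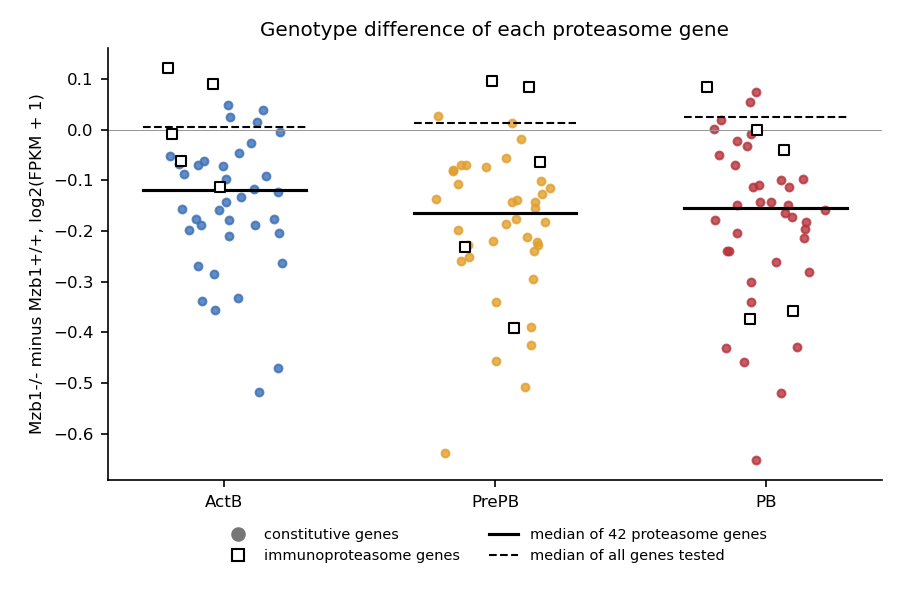
Difference between Mzb1-/- and Mzb1+/+ of each of the 42 genes in each population on the log2(FPKM + 1) scale; dots are constitutive and squares immunoproteasome genes, solid lines the median of the 42 and dashed lines the median of all genes tested. The solid lines lie at -0.12, -0.16 and -0.15, below the dashed lines at 0.01, 0.01 and 0.03, and no single gene passed the adjusted threshold.

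No difference between the genotypes in a population change passed the test. None of the 42 genes was called for a different change from ActB to PrePB, from PrePB to PB or from ActB to PB (limma interaction), where 0.0361%, 0% and 0.0452% of all genes were. At an unadjusted p below 0.05 there were 0, 0 and 2 (Psmd14 and Psmb3, from ActB to PB, both lower in ko), a threshold at which all genes were not counted. With 2 libraries in a group the standard error of an interaction was 0.13 for Psmb8 and 0.17 for Psme4, so differences of that order could not be resolved. Larger ones could be missed too, since that of Psmd14, given above, did not pass after adjustment.

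Genes that act around the proteasome were taken from lists chosen with earlier results of these data known. Of 20 assembly factors, receptors and regulators tested, 6 were higher and 5 lower in wt PB than in ActB, near the 31.0% of all genes in each direction, with a median of -0.05. Rad23b, a shuttle for ubiquitin-tagged proteins, rose by 0.92 and the proteasome-bound thioredoxin-like protein Txnl1 by 0.74 (limma adjusted p = 7.51e-06 and 8.11e-05). The proteasome-bound deubiquitinases Usp14 and Uchl5 fell by 0.86 and 0.83 on the log2 scale (adjusted p = 1.11e-05 and 8.79e-05). Psmg1, Psmg2 and Psmg3, chaperones of alpha ring assembly, were at -0.62, -0.38 and -0.85, and were named after their values were seen. With equal totals the counts became 3 higher and 13 lower.

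The transcription factor Nrf1, encoded by Nfe2l1, drives proteasome genes when proteasome activity falls short, after release from the endoplasmic reticulum by Vcp and processing that needs Ngly1 and Ddi2. The 8 genes listed were those of that route, partner factors and Nfe2l2, which encodes Nrf2. Of these 8, 5 were higher (Nfe2l1, Ngly1, Vcp, Mafg and Maff) and 2 lower (Nfe2l2 and Mafk) in wt PB, beside 31.0% of all genes in each direction, with a median of 0.41. With equal totals 3 were higher and 4 lower, and the median was 0.00. Maff, a small partner factor, rose by 1.51, Ngly1 by 1.13, Mafg by 0.84 and Vcp by 0.59 (limma adjusted p = 1.22e-05, 1.70e-05, 0.00205 and 0.000168). Maff was low throughout, at 0.221 to 3.18 FPKM over all libraries. With equal totals Vcp was not called in wt. Nfe2l1 itself rose by 0.22 (adjusted p = 0.0211), a call lost with quantile normalization, and with equal totals it was called lower. Ubb, a gene that encodes ubiquitin itself, was higher by 0.95 (limma adjusted p = 0.00111).

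Most genes that act beside the immunoproteasome in antigen presentation rose from ActB to PB. Of 13 regulators and class I genes, 10 were higher and 2 lower in wt PB, beside 31.0% of all genes in each direction, with a median change of 1.37. Tapbpl, an editor of class I peptides, rose by 2.52, the chaperones Calr and Pdia3 by 2.29 and 1.97, and the peptide trimmer Erap1 by 1.34 (limma adjusted p = 2.32e-09, 3.87e-08, 3.57e-08 and 1.81e-07). Calr and Pdia3 also serve the folding of many other secretory proteins. Named after their values were seen, the inducer Nlrc5 was lower, with a change of -0.97, and the inducer Irf1 was higher, by 0.85. With quantile normalization the counts stayed at 10 and 2, and with equal totals they were 9 and 3. None of the genes named from these lists was called between ko and wt in any population (limma).

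Tap1, which carries peptides into the endoplasmic reticulum, is transcribed from the same stretch as Psmb9 in the opposite direction. On GRCm38.p6 their RefSeq starts are 226 bases apart, so the 250 bases before each start overlap over most of their length. Tap1 changed by 0.02 from ActB to PB in wt, without a call, beside -0.35 for Psmb9. With equal totals Tap1 was called lower in both genotypes.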

How the data were processed

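RNA of the 12 libraries was isolated on RNeasy columns, selected with oligo-dT and made into stranded TruSeq libraries, per the labels' protocols. The deposited values are FPKM, made by the authors with TopHat2 2.0.14, Cufflinks 2.2.1 and Cuffnorm 2.2.1 on mm9, per the submitters' processing notes. The annotation, scaling and filters are not given in the sources used here. The files hold no counts, so the depth is unknown and no counting interval was computed. Their names give libraries of 1 genotype and replicate number a shared number across populations, whose meaning is not stated.

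Values were analysed as log2(FPKM + 1), a scale that understates the change of low genes, without further scaling. limma 3.58.1 (R 4.3.3) was fitted with 1 coefficient for each of 6 groups over the 11069 genes that reached 1 FPKM in 2 or more libraries, leaving 6 residual degrees of freedom, and was tested on simulated data. All p-values are two-sided. Those of limma are adjusted by Benjamini-Hochberg over all genes tested unless called unadjusted, with a threshold of 0.05. Those of single permutation tests are unadjusted, and their adjustment was over the 9 ratio tests. Ratios of exchange partners were compared by exact permutation tests over 4 libraries a population. Copies were searched with blastn 2.17.0 in GENCODE M21 transcripts. Promoter coordinates are those of GRCm38.p6, not of mm9.

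Members, lists and tests were chosen with earlier results of these data known. Named genes were those called in any comparison, the exchange pairs, Psme1 to Psme4 and Pomp, and up to 4 called genes of lowest p in each other list. Other settings were filters, pseudocount, scalings, replicate terms, a term for the low-value sets and left-out libraries. Some results on genes around the proteasome are not reported here.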

Additional observations from a re-analysis of the deposited data

How the results depend on the processing

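The counts of called members moved most with the scaling between libraries. Shares of all genes called were computed for the fit reported first alone, not for the other settings. For wt PrePB against ActB the count was 10, and 6 without a filter, 17 with quantile normalization, 24 with equal totals, 5 without the first wt replicate in all populations and 6 to 9 with single libraries left out. For wt PB against PrePB it was 0, and 1 with quantile normalization, 13 with equal totals and 1 with a correlation within replicate number and genotype. For wt PB against ActB it was 14, and 27 with quantile normalization, 35 with equal totals, 8 without the first wt replicate and 8 to 12 with single libraries left out. For ko PrePB against ActB it was 11, and 17 with quantile normalization, 17 with equal totals and 7 in the larger low-value set alone, an alternative chosen after seeing the data. For ko PB against PrePB it was 1, and 0 without a filter, 5 with quantile normalization, 3 with equal totals, 0 with only the 2 groups compared, 0 with a term for the low-value set and 0 to 1 with single libraries left out. For ko PB against ActB it was 16, and 10 without a filter, 27 with quantile normalization, 31 with equal totals and 9 to 12 with single libraries left out. Counts between genotypes and for interactions were 0 in every setting run. A fit with 1 library left in a group assumes that it varies like the other groups. The cause of these shifts was not tested.

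Some directions turned. With quantile normalization Pomp was at -0.29 in wt PB and -0.29 in ko PB against ActB, Psmb4 at -0.15 in wt PrePB, -0.34 in wt PB and -0.29 in ko PB, and Psmd8 at -0.40 in wt PB. With equal totals Pomp was at -0.30 in wt PB and -0.24 in ko PB, Psmc2 at -0.16 in wt PB, Psmd12 at -0.28 in wt PB and -0.079 in ko PB, Psmd8 at -0.33 in wt PB, and Psme1 at -0.24 in wt PrePB and -0.31 in wt PB. The differences in the ratios of exchange partners moved by less than the SD between libraries when single libraries were left out. Leaving out a single library cannot move the mean of a population by as much as that SD. This outcome was thus fixed in advance and does not show whether the ratios are stable. No test was made of the ratios with libraries left out.

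With the replicate block the counts were 11, 0 and 16 in wt (PrePB against ActB, PB against PrePB, PB against ActB), 14, 1 and 19 in ko, and 0 between genotypes and for interactions. Replicate differences correlated at 0.05, 0.32 and 0.24 between populations in wt and at 0.29, 0.10 and 0.11 in ko, and at -0.11, -0.08 and -0.05 between genotypes, so not every pair passed 0.1, and the fits reported first have no block. In wt the sex transcripts follow the replicate number in all 3 populations, and file names give each number and genotype 1 shared identifier. The block added the calls of Psmb4, Psmb5, Psme1 and Psmd3 given with those genes and removed none. Without the 8 members that have near-identical copies, an alternative chosen after seeing the data, each count stayed within 1.5 times its value.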
